A study of Homo sapiens with 12 samples.

Results

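The 46 genes described here are a hand-written set of G2/M and mitosis genes: mitotic cyclins and their kinase CDK1, other mitotic kinases and phosphatases, checkpoint and kinetochore proteins, kinesins, spindle and cytokinesis factors, and the transcription factor FOXM1. They were chosen by name, with no threshold on any value, but with earlier results of these data known. All 46 were found among the 56634 gene symbols of the count table, and all 46 passed the filter on low counts, as members of the 13084 genes tested. RNA of HCT116, an epithelial cell line from a human colorectal carcinoma, was sequenced in 4 groups of 3 biological replicates. Cells of the TNF plus Senexin B group had 1 µM Senexin B for 1 hour and then 10 ng/mL TNF-alpha (TNF) on top of it for 2 hours. In the TNF group 0.1% DMSO stood in for the inhibitor. The Senexin B group had 1 µM of the inhibitor alone for 3 hours, and the control group had 0.1% DMSO alone for 3 hours. Senexin B inhibits CDK8 and CDK19, the kinases of the Mediator complex, which links transcription factors to RNA polymerase II. TNF, a cytokine of inflammation, works largely through NF-kB transcription factors. All groups are 1 cell line at 1 time point and 1 dose, and the labels mention no synchronisation.

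The genes of this set are transcribed in waves. Their promoters are held down in resting and early cycling cells by the DREAM complex, and are switched on in S and G2 phase by B-Myb with the MuvB core and then by FOXM1. The shared promoter elements are the CHR (cell cycle genes homology region) and boxes of the letters CCAAT, which bind NF-Y. The proteins bring about entry into mitosis, attachment of chromosomes to the spindle, separation of sister chromatids and division of the cell, and the set is widely read as a sign of how many cells of a population are dividing.

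Promoters of 38 of the 46 genes could be matched by symbol in RefSeq (GRCh38.p14), as 300 bases around each gene's start. CCAAT, read on both strands, stood in 31 of the 38 (81.6%), against 35.7% of all 27305 promoters in that table. A CHR hexamer, TTTGAA or TTTAAA on either strand, stood in 32 (84.2%), against 24.3% of all promoters. Both elements together were found in 27 (71.1%), against 9.49% of all promoters. A match of so few letters is a description and no proof of a bound site. The 5 promoters below are examples: CKS2, KIF20A and ANLN were called in both Senexin B comparisons, CDC25B in both TNF comparisons, and CKS1B is the near relative of CKS2. Each run is the 200 bases directly before the RefSeq start, on the plus strand, and capitals mark the CCAAT boxes and the CHR hexamers, which read as their reverse complement when they lie on the other strand.
CKS2 (chr9:89310995-89311194): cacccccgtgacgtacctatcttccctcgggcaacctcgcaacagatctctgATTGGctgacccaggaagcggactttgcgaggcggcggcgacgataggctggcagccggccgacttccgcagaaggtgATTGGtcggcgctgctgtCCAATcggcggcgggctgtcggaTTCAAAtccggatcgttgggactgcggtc
CKS1B (chr1:154974481-154974680): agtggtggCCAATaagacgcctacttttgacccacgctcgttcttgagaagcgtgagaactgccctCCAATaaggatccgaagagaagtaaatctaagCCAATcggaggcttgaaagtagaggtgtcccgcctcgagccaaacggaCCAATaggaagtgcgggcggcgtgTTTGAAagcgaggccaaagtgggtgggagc
KIF20A (chr5:138178912-138179111): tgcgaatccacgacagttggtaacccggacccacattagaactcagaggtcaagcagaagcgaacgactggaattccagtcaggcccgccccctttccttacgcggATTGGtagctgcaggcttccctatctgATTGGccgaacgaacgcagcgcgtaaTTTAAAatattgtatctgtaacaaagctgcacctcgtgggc
ANLN (chr7:36389662-36389861): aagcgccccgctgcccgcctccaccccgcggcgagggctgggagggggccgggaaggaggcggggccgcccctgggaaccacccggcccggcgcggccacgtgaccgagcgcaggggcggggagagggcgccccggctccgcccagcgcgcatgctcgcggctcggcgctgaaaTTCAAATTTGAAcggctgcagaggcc
CDC25B (chr20:3786751-3786950): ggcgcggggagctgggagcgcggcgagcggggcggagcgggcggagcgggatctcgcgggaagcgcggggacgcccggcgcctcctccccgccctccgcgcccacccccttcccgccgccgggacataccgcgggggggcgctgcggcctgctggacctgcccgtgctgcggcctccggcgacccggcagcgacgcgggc
CKS2 and CKS1B hold the same arrangement, CCAAT boxes followed by a CHR hexamer whose first base lies 29 and 30 bases before the start. The KIF20A hexamer begins 41 bases before the start, and ANLN has 1 hexamer on each strand, side by side from 26 bases before the start, and no CCAAT. The CDC25B window holds none of these motifs. The RefSeq start is not the only one: in GENCODE 29, CDC25B begins at 3786772 and KIF20A at 138178719. Most of the CDC25B window and all of the KIF20A window lie downstream of those starts. The bases before those starts were not searched in full. The differences in layout hold for these windows only, and the other called genes were not laid out in this way.

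The libraries held from 5835226 to 9281176 counts, so that 1 CPM (a count scaled to the library total and its TMM factor) stood for about 5.8 to 9.3 counts. The 46 genes together took 0.851 to 0.867% of all counts in the TNF plus Senexin B libraries, 0.902 to 0.933% in the TNF libraries, 0.898 to 0.908% in the Senexin B libraries and 0.930 to 0.961% in the control libraries. These shares are of raw totals, without TMM factors. With TMM factors, the mean log2(CPM + 1) of the set was 7.167 to 7.201 with both agents and 7.238 to 7.291 with TNF. It was 7.225 to 7.251 with Senexin B and 7.268 to 7.274 in control cells, so TNF and control overlapped on that scale. All 3 libraries with both agents lay below the other 9 on either scale. In a bulk sample, fewer cells in G2 and mitosis and less of these RNAs per cell cannot be told apart. The TNF labels were checked with 6 NF-kB target genes, whose mean log2(CPM + 1) was 5.97 to 6.61 in the TNF-treated libraries and 1.85 to 2.14 in the others. Summed CPM of 8 epithelial markers was 4580 to 4620 with both agents, 3960 to 4420 with TNF, 4690 to 4780 with Senexin B and 4260 to 4590 in control cells. The intestinal factor CDX1 stood at 0 in all 12 libraries. Fibroblast markers summed to at most 11.2 CPM with DCN, LUM and PDGFRA at 0, and blood markers to at most 0.674 CPM with CD68 and HBB at 0. TNF replicate 1 and control replicate 1 stood apart from their group: their counts differed from those of the other replicates by 2.51 to 2.87 times the sampling variance, against 1.23 to 1.76 in the remaining pairs of replicates. Member calls made with all libraries are given with and without either library where the call changes. Other values are from all 12 libraries unless a fit is named.

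Every member was well expressed. Per kilobase of exon, the control level was highest for KPNA2 (265.3 ± 14.1 CPM per kb), CKS2 (228.9 ± 10.7) and CDC20 (193.5 CPM per kb), and lowest for CDCA3 (6.98) and CDC25C (5.88 CPM per kb; SD where given, n = 3). CDC25C had the lowest raw count of the set, 116 in a library, and KPNA2 had 5161 to 7790. The set was also steady. The median within-group coefficient of variation was 3.74%, and the highest group mean exceeded the lowest by a median factor of 1.1 over the 46 genes. That factor stayed under 1.1 for 25 genes and reached 1.2 for 3, CKS2 (1.28), KIF20A (1.26) and MKI67 (1.249). The MKI67 factor rests on control replicate 1: the control libraries ran from 733 to 1024 CPM, with that replicate highest. Group means were lowest in TNF plus Senexin B for 25 of the 46 genes, in TNF for 9, in Senexin B for 6 and in control for 6. They were highest in TNF plus Senexin B for 2 genes, in TNF for 22, in Senexin B for 10 and in control for 12. The same counts over all tested genes are not given here, and TNF replicate 1 enters the TNF means. The median log2 fold change of the set in TNF against control was 0.0075 with that library and -0.0215 without it.

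Changes in the set were few, small and nearly all downward. With edgeR's quasi-likelihood test and Benjamini-Hochberg adjustment over all tested genes, genes with an adjusted p under 0.05 were called. Senexin B against control called 3 of the 46 genes, all lower (6.52%), where 3.04% of all tested genes were called, 1.53% higher and 1.51% lower. TNF plus Senexin B against TNF called 8, all lower (17.4%), beside 5.45% of all genes, 2.90% higher and 2.55% lower. That count was 4 without TNF replicate 1 and 3 without TNF plus Senexin B replicate 1. TNF against control called 1 higher and 4 lower (10.9%), a share near the 10.0% of all genes called there (5.81% higher and 4.20% lower). Both agents against Senexin B alone called 4, all lower (8.70%), beside 5.95% of all genes, 4.27% higher and 1.68% lower. TNF plus Senexin B against control called 8, all lower (17.4%), beside 11.2% of all genes, 6.09% higher and 5.08% lower. In all, 14 genes were called in at least 1 comparison and 32 in none. The matching count over all tested genes is not given here, so no excess is read from these numbers. Comparisons that share a group are not independent of each other.

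Wald intervals were drawn for each gene alone from the normal distribution, with no adjustment for the number of genes. With 3 libraries a group they can be narrower than the quasi-likelihood test would give. MKI67 came nearest to the 1.5-fold bound (0.585 on the log2 scale), reaching -0.564 in Senexin B against control. So drawn, the 95% intervals of all 46 genes lay within a 1.5-fold change in either direction in each of the 5 group comparisons. They lay within 1.25-fold (0.322 on the log2 scale) for 44 genes with Senexin B against control, 43 with TNF plus Senexin B against TNF, 44 with TNF against control, 45 with both agents against Senexin B alone and 41 with TNF plus Senexin B against control. The genes outside that narrower bound were CKS2, MKI67, CDKN3, CDC25B, AURKA and KIF20A, each in at least 1 comparison. The typical standard error of a log2 fold change was 0.05.

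**Figure D1:**
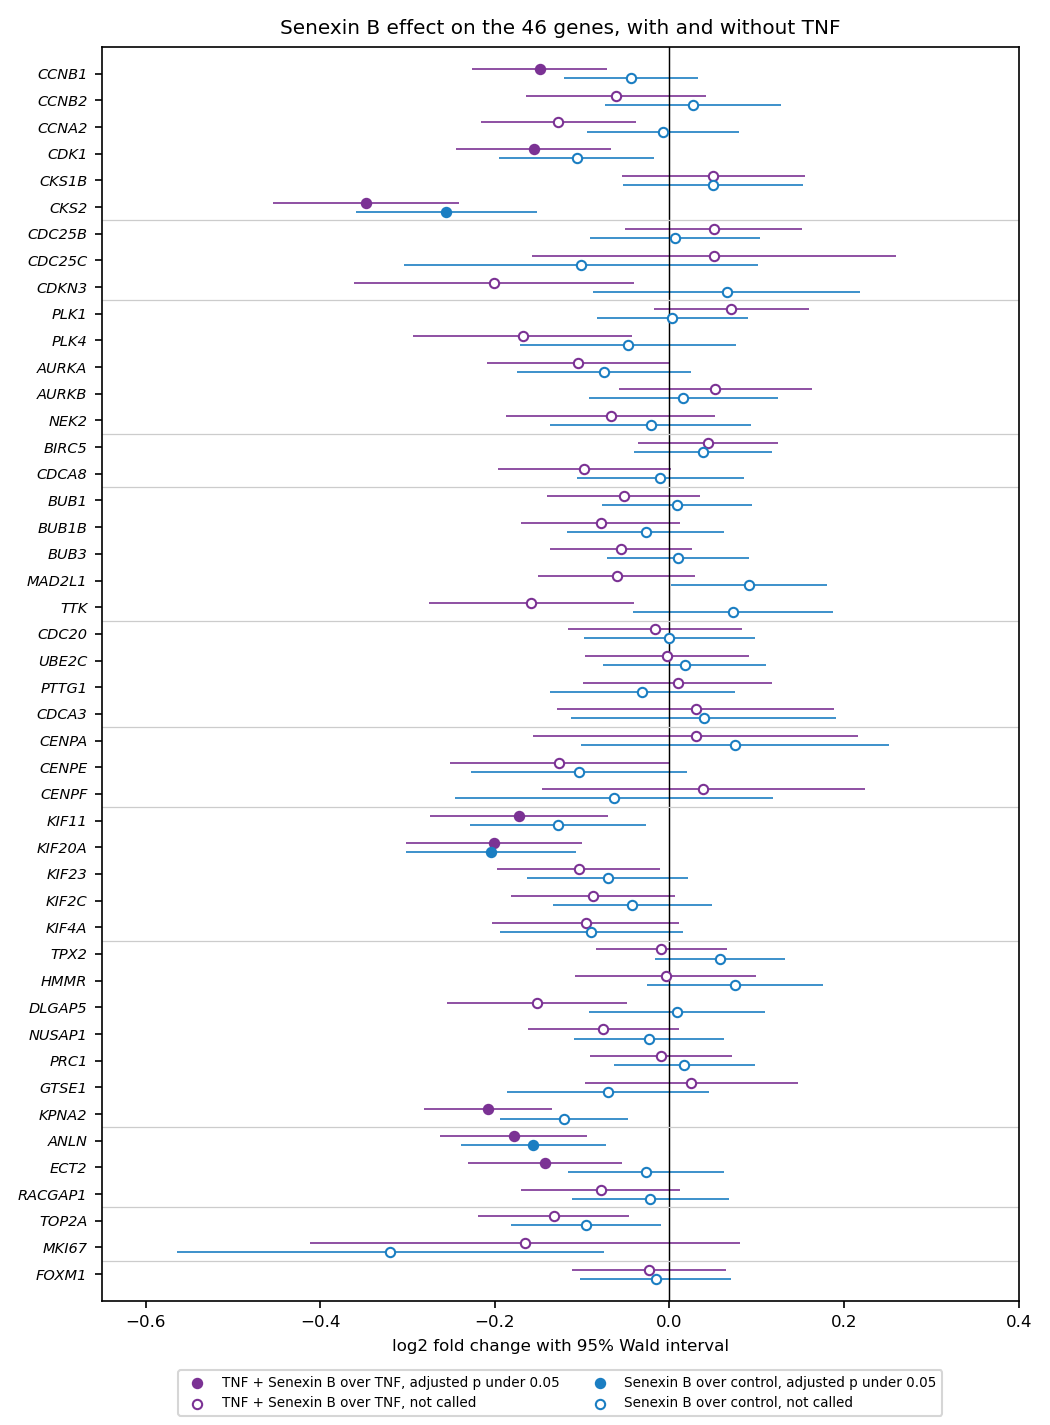
Log2 fold change of the 46 genes (rows, grouped by role) for TNF plus Senexin B over TNF and for Senexin B over control, with 95% Wald intervals; filled points have an edgeR adjusted p under 0.05. The filled points are 8 with TNF and 3 without it, all left of 0, and CKS2 lies farthest left among them at -0.35 and -0.26.

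Among the 6 cyclins, CDK1 and CKS subunits, 3 fell with Senexin B in the presence of TNF (CKS2, CCNB1 and CDK1) and 1 without it (CKS2), and none rose. CKS2 is a small adaptor subunit bound to cyclin-dependent kinases. CKS2 (chromosome 9, 89311198 to 89316703, plus strand, GRCh38) stood at 110.4, 113 and 108 CPM in TNF plus Senexin B replicates 1, 2 and 3, and at 157, 131 and 136 CPM in the TNF replicates. It stood at 121, 117 and 115 CPM in the Senexin B replicates and at 147, 134 and 140.5 CPM in the control replicates. Each inhibitor-treated library lay below every library without the inhibitor. CKS2 fell by 0.35 ± 0.05 (log2, SE) in TNF plus Senexin B against TNF (edgeR adjusted p = 6.14e-06) and by 0.26 ± 0.05 in Senexin B against control (adjusted p = 0.00125). CKS1B, the other CKS subunit, stood at 93.9, 93.0 and 100.4 CPM with both agents, 94.0, 93.6 and 90.3 CPM with TNF, 94.6, 92.3 and 95.6 CPM with Senexin B, and 89.3, 92.7 and 90.7 CPM in control cells. Its libraries were level across the groups, and its log2 fold change was 0.05 ± 0.05 in both Senexin B comparisons, with adjusted p = 0.67 with TNF and 0.73 without it. The CKS2 to CKS1B ratio was 1.16 ± 0.078 with both agents, 1.52 ± 0.137 with TNF, 1.25 ± 0.044 with Senexin B and 1.54 ± 0.1 in control cells (SD, n = 3 each), and the inhibitor-treated libraries, at 1.07 to 1.28, did not overlap the others, at 1.4 to 1.67.

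CCNB1, cyclin B1, which activates CDK1 at mitotic entry, stood at 312, 319.9 and 320.5 CPM with both agents and at 367, 341 and 349 CPM with TNF. The Senexin B libraries held 355, 330.4 and 333 CPM and the control libraries 348, 350.2 and 351 CPM. All 3 libraries with both agents lay below the other 9, whose groups overlapped each other. CCNB1 fell by 0.15 ± 0.04 in TNF plus Senexin B against TNF (edgeR adjusted p = 0.0139), and Senexin B alone gave -0.04 ± 0.04 (adjusted p = 0.66). Its partner kinase CDK1 had 202, 198 and 207 CPM with both agents, against 239.6, 214 and 224 CPM with TNF, and 199, 193 and 199 CPM with Senexin B, against 218, 219 and 200.2 CPM in control cells. The groups did not overlap in either pair, and CDK1 fell with TNF present by 0.16 ± 0.05 (adjusted p = 0.0281), against -0.11 ± 0.05 without TNF (adjusted p = 0.24). CCNA2 and CCNB2, cyclins A2 and B2, were not called (-0.13 ± 0.05 and -0.06 ± 0.05 with TNF, -0.01 ± 0.04 and 0.03 ± 0.05 without). Of the CDC25 and CDKN3 phosphatases, which remove phosphates from cyclin-dependent kinases, none of 3 was called with Senexin B in either setting. CDKN3 had the lowest value, -0.20 ± 0.08 with TNF (adjusted p = 0.15), or -0.31 ± 0.09 (adjusted p = 0.0195) without TNF replicate 2. CDC25B gave 0.05 ± 0.05 with TNF and 0.01 ± 0.05 without it.

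The mitotic kinases PLK1, PLK4, AURKA, AURKB and NEK2, the passenger proteins BIRC5 and CDCA8, the 5 spindle checkpoint genes and the 4 genes around the anaphase-promoting complex (CDC20, UBE2C, PTTG1, CDCA3) gave no call in either Senexin B comparison. Their log2 fold changes spanned -0.17 to 0.07 with TNF and -0.07 to 0.09 without it. Other fits added calls. Without TNF replicate 3, PLK4 (-0.25, edgeR adjusted p = 0.018) and TTK (-0.22, 0.0393) were called lower in TNF plus Senexin B against TNF. With the replicate block and GC-corrected offsets together, MAD2L1 was called higher in Senexin B against control (0.11, 0.0475). BUB3, the most abundant checkpoint gene by CPM, stood at 358, 386 and 373 CPM with both agents, 417, 375 and 372 CPM with TNF, 360.3, 369 and 353 CPM with Senexin B and 343, 371 and 359 CPM in control cells. The TNF libraries lay above every Senexin B and control library, with TNF replicate 1 highest, and the libraries with both agents overlapped all other groups. CDC20, the activator of the anaphase-promoting complex, had 330.1, 366 and 381 CPM with both agents, 333, 386 and 368 CPM with TNF, 390.4, 399 and 394 CPM with Senexin B and 368, 415 and 400.4 CPM in control cells. Its Senexin B value was -0.02 ± 0.05 with TNF and 0.00 ± 0.05 without it, and the groups overlapped in both of these comparisons. With both agents or TNF, all libraries lay below the Senexin B libraries.

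Among the kinetochore proteins CENPA, CENPE and CENPF none was called. CENPF, a large protein of the outer kinetochore, had 339, 317 and 321 CPM with both agents, 323, 314 and 314 CPM with TNF, 319.6, 339 and 339 CPM with Senexin B and 411, 306 and 327 CPM in control cells, where replicate 1 alone stood high. Of the 5 kinesins, motor proteins of the spindle, all had negative values in both Senexin B comparisons (median -0.10 with TNF and -0.09 without). KIF20A, a motor that carries the passenger complex to the central spindle, held 102, 109 and 114 CPM with both agents and 120.0, 124 and 129.6 CPM with TNF. It held 118, 118 and 120.2 CPM with Senexin B and 138, 134 and 139 CPM in control cells. Each inhibitor group lay below its counterpart with no overlap. KIF20A fell by 0.20 ± 0.05 in each comparison, with edgeR adjusted p = 0.00994 with TNF and 0.00837 without it. KIF20A (chromosome 5, 138178719 to 138187715, plus strand) shares 132 exon bases with BRD8 and 68 with CDC23 on the other strand, and reads there cannot be assigned in a library without strand. Neither neighbour was called (BRD8 -0.01 ± 0.07 and -0.04 ± 0.07, CDC23 -0.15 ± 0.06 and 0.04 ± 0.05, with and without TNF). KIF11, the motor that pushes spindle poles apart, had 118, 119 and 116 CPM with both agents, against 141, 136 and 122 CPM with TNF, and 114, 121 and 121 CPM with Senexin B, against 133, 126 and 130.1 CPM in control cells. The groups were apart in each pair, and KIF11 was called with TNF (-0.17 ± 0.05, adjusted p = 0.0365) and not without it (-0.13 ± 0.05, adjusted p = 0.21). KIF23, the most abundant kinesin by CPM, had 155, 168 and 161 CPM with both agents, 179, 179.6 and 162 CPM with TNF, 165, 158 and 168 CPM with Senexin B and 168, 174 and 174 CPM in control cells. Its groups with TNF overlapped, and it was not called.

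Of the 7 spindle assembly factors, KPNA2 was called with Senexin B in the presence of TNF, and none was called without TNF. KPNA2 (chromosome 17, 68035519 to 68046842, plus strand) encodes importin alpha 1, which brings proteins into the nucleus and holds TPX2 until the Ran gradient frees it near chromosomes. Its levels were 728, 765 and 806 CPM with both agents, against 895, 869.9 and 891 CPM with TNF, and 774, 737 and 789 CPM with Senexin B, against 782, 857 and 861 CPM in control cells. With TNF the groups were apart, and KPNA2 fell by 0.21 ± 0.04 (edgeR adjusted p = 0.000111). Without TNF, control replicate 1 lay within the Senexin B range, and the value was -0.12 ± 0.04 (adjusted p = 0.0645). That value passed the threshold without control replicate 1 (-0.16 ± 0.04, adjusted p = 0.00753), without TNF replicate 1 (0.0416), with GC-corrected offsets (0.0173) and in a fit of these groups alone (0.0447). TPX2, HMMR, NUSAP1, PRC1 and GTSE1 had values of at most 0.08 in size in either comparison, and none of them was called. DLGAP5, a microtubule-binding spindle protein, had 122, 127 and 133 CPM with both agents, against 154, 138 and 134 CPM with TNF. The groups were apart, with a value of -0.15 ± 0.05 (edgeR adjusted p = 0.0781), or -0.19 ± 0.06 (adjusted p = 0.0427) without TNF replicate 3, against 0.01 ± 0.05 without TNF.

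The cytokinesis genes ANLN, ECT2 and RACGAP1 act at the contractile ring. ANLN (anillin, chromosome 7, 36389806 to 36453791, plus strand) had 285, 300.1 and 289.5 CPM with both agents and 353, 318 and 321 CPM with TNF. It had 272, 299 and 303 CPM with Senexin B and 330.1, 319 and 325 CPM in control cells. In each pair the inhibitor group was lower without overlap, and ANLN fell by 0.18 ± 0.04 with TNF (edgeR adjusted p = 0.00531) and by 0.16 ± 0.04 without it (adjusted p = 0.0247). ECT2, a guanine nucleotide exchange factor needed for cytokinesis, was called with TNF (-0.14 ± 0.05, adjusted p = 0.0486) and not without it (-0.03 ± 0.05). MKI67, which encodes the proliferation marker Ki-67, held 738, 647 and 659 CPM with both agents, 737, 750.2 and 804 CPM with TNF, 618, 706 and 696 CPM with Senexin B and 1024, 733 and 766 CPM in control cells. Control replicate 1 stood 0.45 (log2) above the other control replicates, the largest such gap of any member in that library. The groups overlapped with TNF and not without it. The Senexin B value of MKI67 was -0.32 ± 0.12 with all libraries (adjusted p = 0.29) and -0.155 ± 0.056 without control replicate 1 (adjusted p = 0.24). With TNF it was -0.17 ± 0.13 (0.55), or -0.17 ± 0.04 (0.0183) in a fit of these groups alone. TOP2A, its partner in role, was lower without overlap with TNF (-0.13 ± 0.04, 0.0658) and gave -0.10 ± 0.04 without TNF (0.29). With TNF, TOP2A was called with the replicate block (0.034), without control replicate 1 (0.0329) or without TNF replicate 2 (0.0243). FOXM1, the transcription factor of the set, had 223, 212 and 214 CPM with both agents, 219.9, 223 and 216 CPM with TNF, 226, 209 and 224 CPM with Senexin B and 208, 231 and 227 CPM in control cells. All groups overlapped, and its intervals were -0.11 to 0.06 with TNF and -0.10 to 0.07 without it.

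**Figure D2:**
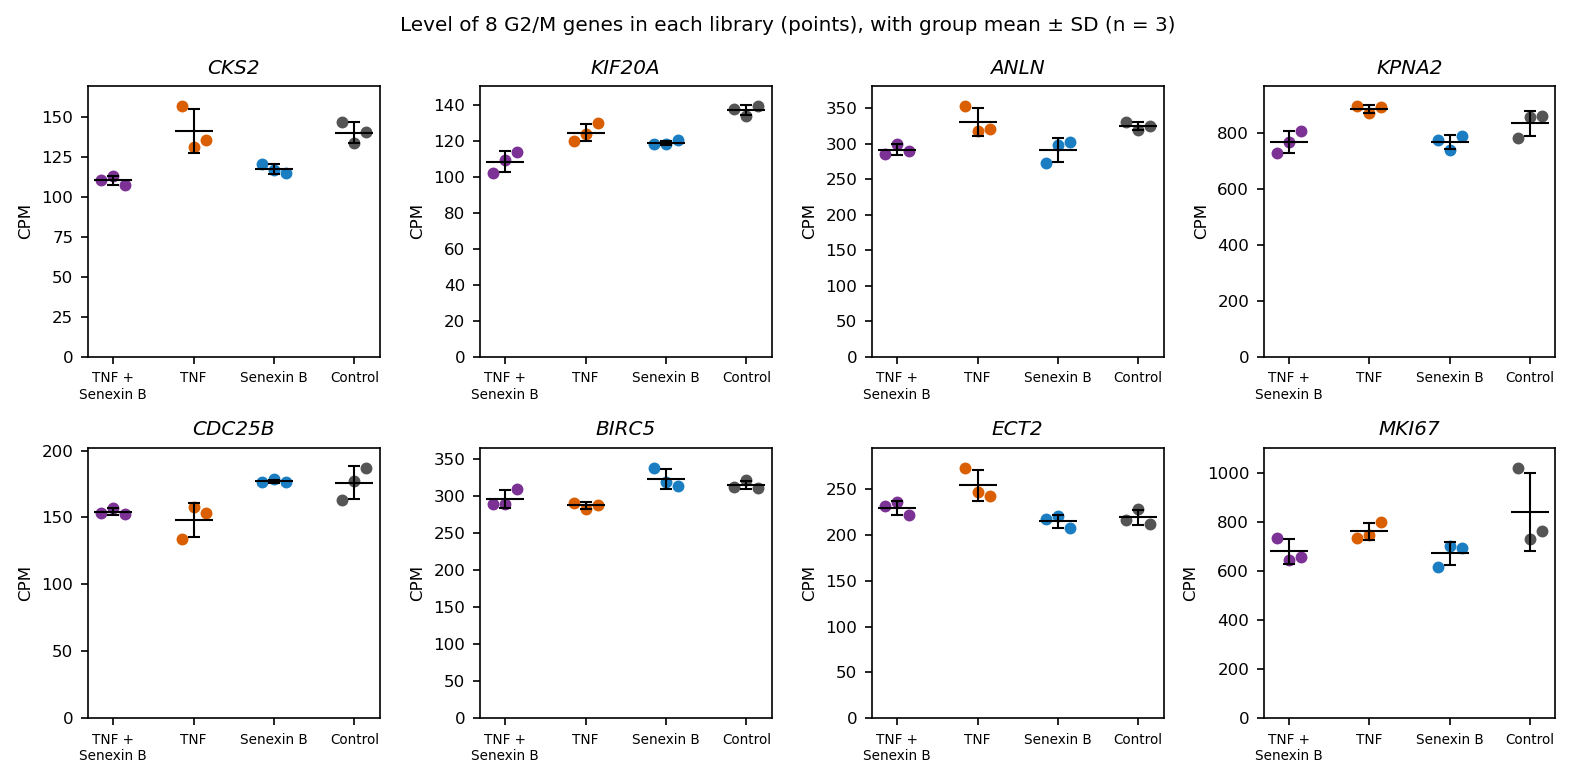
CPM (y axes from 0) of 8 members in each library (points), with group mean and SD (n = 3), for TNF plus Senexin B, TNF, Senexin B and control from left to right. CKS2, KIF20A and ANLN stand lower in each inhibitor group than in its counterpart without the inhibitor, CDC25B and BIRC5 stand lower in each TNF group, and MKI67 has 1 high control library at 1024 CPM.

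The Senexin B comparisons with and without TNF share no library. CKS2, KIF20A and ANLN were called lower in both, which is all 3 of the genes called without TNF and 3 of the 8 called with it. Over all tested genes, 89 were called lower in both and 123 higher in both. Over the 46 genes, 24 had negative values in both, 7 positive values in both and 15 opposite signs, so 67.4% had the same sign, against 64.1% of all tested genes. Pearson's r between the log2 fold changes was 0.568 over the 46 genes and 0.263 over all 13084 genes, and Spearman's correlation was 0.522 and 0.330. Genes are not independent replicates, and these are descriptions. The median of the set was -0.08 with TNF, where 35 of 46 values were negative, and -0.02 without TNF, where 28 were. GC-corrected offsets gave -0.0476 with TNF and -0.0175 without it. The median over all genes was 0.00 with TNF and without it. Without TNF replicate 1 the median of the set with TNF was -0.0582. The correlations above and the counts without overlap below include TNF replicate 1. With TNF, 15 genes were lower and 0 higher without overlap between the groups (32.6% lower, against 11.3% of all genes lower and 11.3% higher). Without TNF, 9 were lower and 2 higher (19.6%, against 10.0% of all genes lower and 9.96% higher).

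Single libraries decide part of these calls. CKS2 in both comparisons, and KPNA2 and ANLN with TNF, were called in all 12 fits that left out 1 library. KIF20A was lost without control replicate 3 (adjusted p = 0.0526) in Senexin B against control, and without TNF plus Senexin B replicate 1 (0.116) or TNF replicate 3 (0.0775) in the other. ANLN against control was lost without Senexin B replicate 1 (0.28), control replicate 1 (0.101) or control replicate 3 (0.0752). CCNB1 was lost without TNF replicate 1 (0.0644) or TNF plus Senexin B replicate 1 (0.081). CDK1 and KIF11 were lost without TNF replicate 1 (0.158 and 0.164) and without each TNF plus Senexin B replicate in turn (0.0507 to 0.141 and 0.0831 to 0.135), CDK1 also without TNF replicate 3 (0.056) and KIF11 without TNF replicate 2 (0.115). ECT2 with TNF was lost in 9 of the 12 fits, with adjusted p = 0.299 without TNF replicate 1 and 0.239 without TNF plus Senexin B replicate 3. With TNF replicate 1 and control replicate 1 both left out, CDK1 (0.108), KIF11 (0.124) and ECT2 (0.233) were lost and the other 5 calls with TNF and all 3 without it were kept.

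In TNF against control the share of members called was close to that of all genes. ECT2 was the 1 member called in both a TNF and a Senexin B comparison. CDC25B, a phosphatase that activates CDK1 with cyclin B at the centrosome (chromosome 20, 3786772 to 3806121, plus strand), had 154, 157 and 152 CPM with both agents, against 176, 178 and 176 CPM with Senexin B, and 134, 158 and 153 CPM with TNF, against 163, 178 and 187 CPM in control cells. Both TNF groups lay below their counterparts without overlap. CDC25B fell by 0.20 ± 0.05 in both agents against Senexin B alone (edgeR adjusted p = 0.00641) and by 0.24 ± 0.05 in TNF against control (adjusted p = 0.000528), and it was called in all 12 fits that left out 1 library in both comparisons. CDC25C and CDKN3 were not called, and CDKN3 gave -0.24 ± 0.08 with the inhibitor (adjusted p = 0.0673) and 0.03 ± 0.08 without it. With the inhibitor, CDKN3 passed the threshold without TNF replicate 1 (0.0342) or 2 (0.0452) and in a fit of these groups alone (0.0256).

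PLK1, the polo-like kinase that drives entry into and passage through mitosis, stood at 199, 207 and 206 CPM with both agents, against 213, 215 and 217 CPM with Senexin B, and at 181, 204 and 195 CPM with TNF, against 208, 213 and 223 CPM in control cells. Its TNF libraries lay below the control libraries, and PLK1 fell by 0.15 ± 0.05 in TNF against control (edgeR adjusted p = 0.0264), while the value with the inhibitor was -0.08 ± 0.04 (adjusted p = 0.42). AURKA, aurora kinase A of the spindle poles, had 99.3, 108 and 102 CPM with both agents, against 119, 110.5 and 117 CPM with Senexin B, and 114, 112 and 106 CPM with TNF, against 117, 123 and 125 CPM in control cells. Neither pair overlapped. AURKA fell by 0.17 ± 0.05 in both agents against Senexin B alone (adjusted p = 0.0383), and TNF against control gave -0.14 ± 0.05 (adjusted p = 0.0872).

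The passenger proteins work with aurora kinase B at centromeres. BIRC5, or survivin, held 289, 289.7 and 310.3 CPM with both agents, against 339, 319 and 313 CPM with Senexin B, and 291, 283 and 289 CPM with TNF, against 313, 322 and 311 CPM in control cells. Both TNF groups were lower without overlap, by 0.13 ± 0.04 each, with edgeR adjusted p = 0.047 with the inhibitor and 0.0269 without it. CDCA8, or borealin, had 114, 118 and 113 CPM with both agents, against 130.0, 132 and 127 CPM with Senexin B, and 123, 122 and 124 CPM with TNF, against 122, 132 and 136 CPM in control cells. It fell by 0.17 ± 0.05 in both agents against Senexin B alone (adjusted p = 0.0191), where the groups were apart. In TNF against control the groups overlapped and the value was -0.09 ± 0.05 (adjusted p = 0.30).

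ECT2 (chromosome 3, 172750682 to 172821474, plus strand) was the 1 member that rose. It had 232, 236 and 221 CPM with both agents, against 217, 221 and 207 CPM with Senexin B, and 274, 247 and 242 CPM with TNF, against 216, 229 and 212 CPM in control cells. The TNF libraries were all above the control libraries, and ECT2 rose by 0.21 ± 0.05 (edgeR adjusted p = 0.000702), or 0.15 (adjusted p = 0.0206) without control replicate 1 and TNF replicate 1. With the inhibitor the value was 0.09 ± 0.05 (adjusted p = 0.30). GTSE1, a microtubule-binding protein, had 72.7, 67.3 and 76.6 CPM with both agents, against 78.5, 78.5 and 75.5 CPM with Senexin B, and 63.1, 73.8 and 74.3 CPM with TNF, against 80.2, 80.1 and 83.4 CPM in control cells. Its TNF libraries lay below the control libraries, and it fell by 0.20 ± 0.06 there (edgeR adjusted p = 0.0283). The checkpoint genes BUB3, MAD2L1 and TTK had values of 0.10 to 0.11 in TNF against control, and none of the 5 checkpoint genes, 4 genes around the anaphase-promoting complex, 3 kinetochore genes or 5 kinesins was called in either TNF comparison with all libraries. With 1 library left out, CDC20 was called lower in TNF against control without control replicate 1 (-0.17, adjusted p = 0.0236) or TNF replicate 2 (0.032), and in both agents against Senexin B alone without TNF plus Senexin B replicate 3 (-0.18, 0.0357). In TNF against control, CENPF was called lower without control replicate 2 (-0.22, 0.0258), and BUB3 higher without TNF replicate 2 (0.14, 0.0459) or 3 (0.14, 0.0427). The CENPF fit keeps control replicate 1, at 411 CPM the highest control library for that gene. Both BUB3 fits keep TNF replicate 1, the highest TNF library for BUB3.

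The TNF comparisons with and without the inhibitor share no library either. CDC25B and BIRC5 were called lower in both, which is 2 of the 4 genes called with the inhibitor and 2 of the 5 called without it. Over all tested genes, 126 were called lower in both and 409 higher in both. Pearson's r between the log2 fold changes was 0.516 over the 46 genes and 0.672 over all genes, and Spearman's correlation was 0.489 and 0.390. Signs were the same for 56.5% of the 46 genes (18 negative and 8 positive in both), against 64.9% of all tested genes. The median of the set was -0.05 with the inhibitor, where 35 of 46 values were negative, and 0.01 without it, where 21 were. The median without the inhibitor changed sign, to -0.0417 with GC-corrected offsets and to -0.0215 without TNF replicate 1, while GC-corrected offsets gave -0.0582 with the inhibitor. Without overlap, 16 genes were lower and 1 higher with the inhibitor (34.8% lower, against 10.4% of all genes lower and 11.5% higher), and 7 were lower and 5 higher without it (15.2% lower, against 11.8% lower and 12.6% higher). Without both TNF replicate 1 and control replicate 1, PLK1 (edgeR adjusted p = 0.0656) and GTSE1 (0.19) were lost in TNF against control. PLK1 was lost without TNF replicate 1 (adjusted p = 0.157), control replicate 3 (0.182), control replicate 2 (0.0513) or TNF replicate 3 (0.0533), and GTSE1 without TNF replicate 1 (0.193) or control replicate 3 (0.130). BIRC5 was lost in 4 of 12 fits against control (control replicates 2 and 3, TNF replicates 2 and 3, adjusted p from 0.051 to 0.121) and in 7 of 12 against Senexin B (up to 0.373 without Senexin B replicate 1). AURKA against Senexin B was lost without replicate 1 or 3 of either group (0.147 to 0.23), and CDCA8 without Senexin B replicate 1 or 2 or TNF plus Senexin B replicate 1 or 3 (0.0769 to 0.109).

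**Figure D3:**
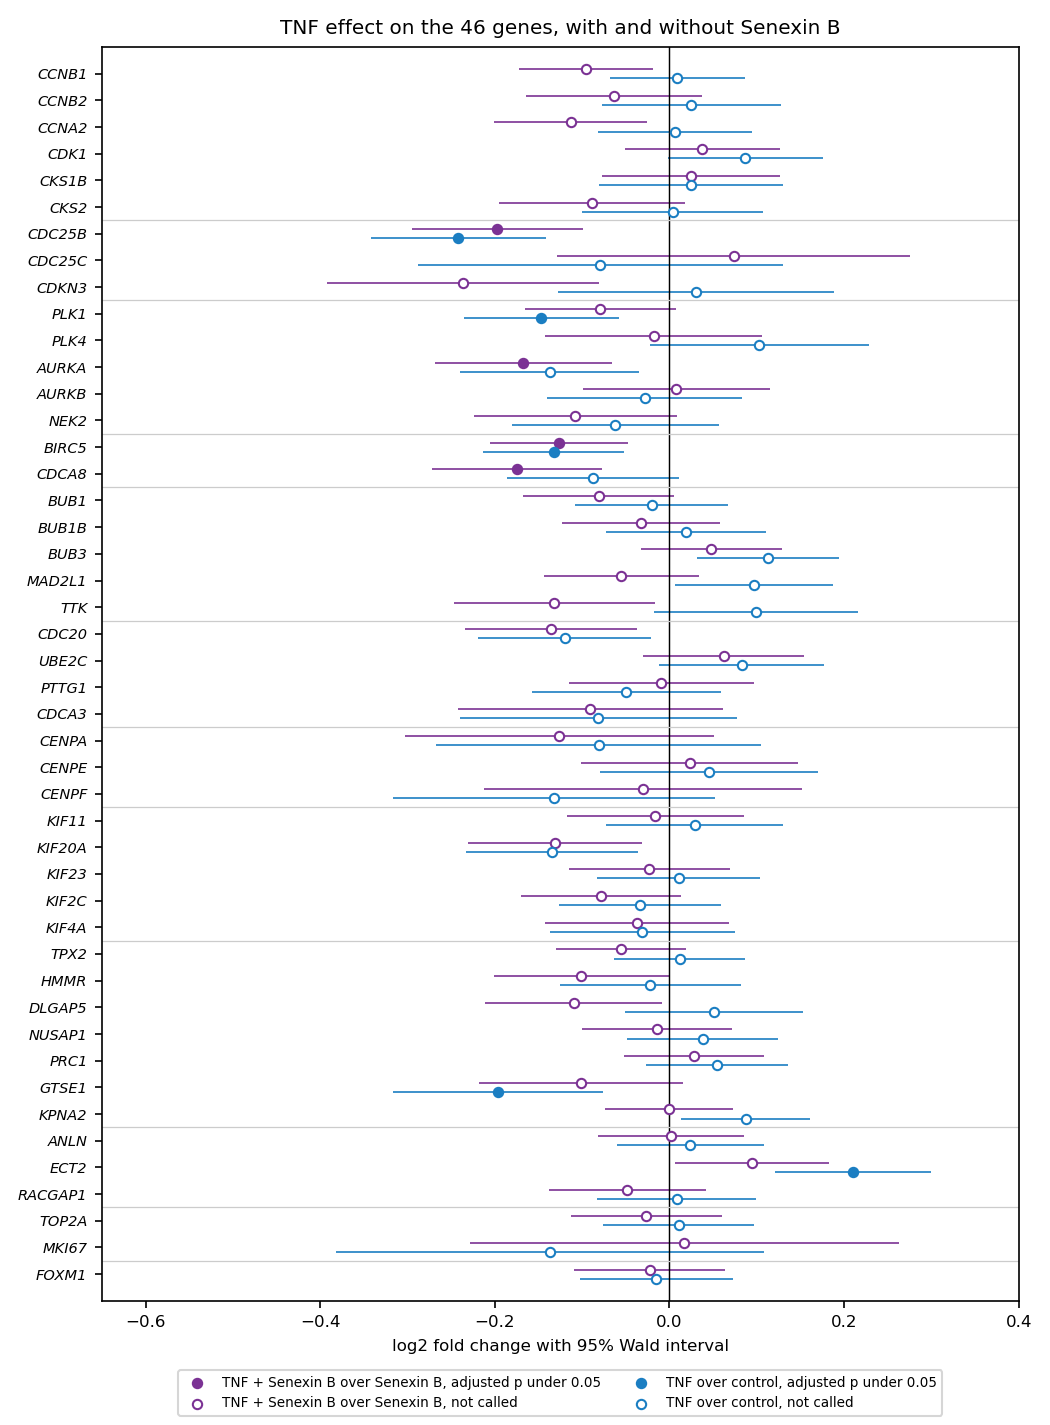
Log2 fold change of the 46 genes (rows, grouped by role) for TNF plus Senexin B over Senexin B and for TNF over control, with 95% Wald intervals; filled points have an edgeR adjusted p under 0.05. Of the 4 and 5 filled points, ECT2 at 0.21 is the only one right of 0, and CDC25B and BIRC5 are filled in both.

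The TNF values moved with base composition, and TNF replicate 1 with them. Over the 46 genes, whose transcripts had a median GC content of 43.9% (35.3 to 59.3%, against 48.4% over the tested genes with a known value), Spearman's correlation between GC content and the log2 fold change was -0.264 for both agents against Senexin B alone and -0.647 for TNF against control. Over all tested genes it was -0.183 and -0.408. In TNF replicate 1 the deviation of the 46 genes from the other TNF replicates had a Spearman correlation of -0.729 with GC content. For control replicate 1 against the other control replicates it was -0.559. These libraries also had the lowest totals, 5835226 counts in TNF replicate 1 and 7315736 in control replicate 1. ECT2, which rose, has a GC content of 38.0%, and CDC25B, PLK1, GTSE1 and BIRC5, which fell, have 59.3, 57.1, 54.1 and 52.2%. With GC-corrected offsets ECT2 stayed called in TNF against control at 0.13 (edgeR adjusted p = 0.0122), CDC25B at -0.16 (adjusted p = 0.00647) and BIRC5 at -0.11 (adjusted p = 0.0364). PLK1 gave -0.08 (adjusted p = 0.21) and GTSE1 -0.16 (adjusted p = 0.0541) there. The correction also added calls, all lower: AURKA (-0.15, adjusted p = 0.022) and KIF20A (-0.14, 0.037) in TNF against control, and CDKN3 (-0.25, 0.0198), CCNA2 (-0.13, 0.0192), CCNB1 (-0.11, 0.024), KIF20A (-0.14, 0.0416) and DLGAP5 (-0.13, 0.0494) in both agents against Senexin B alone. For TNF plus Senexin B against TNF Spearman's correlation was 0.522, and with the same correction CKS2 (-0.30, adjusted p = 8e-07), KPNA2 (-0.20), KIF20A (-0.21), CCNB1 (-0.11) and ANLN (-0.11) stayed called, while CDK1 (-0.06, adjusted p = 0.46), KIF11 (-0.09, adjusted p = 0.31) and ECT2 (-0.06, adjusted p = 0.48) did not.

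**Figure D4:**
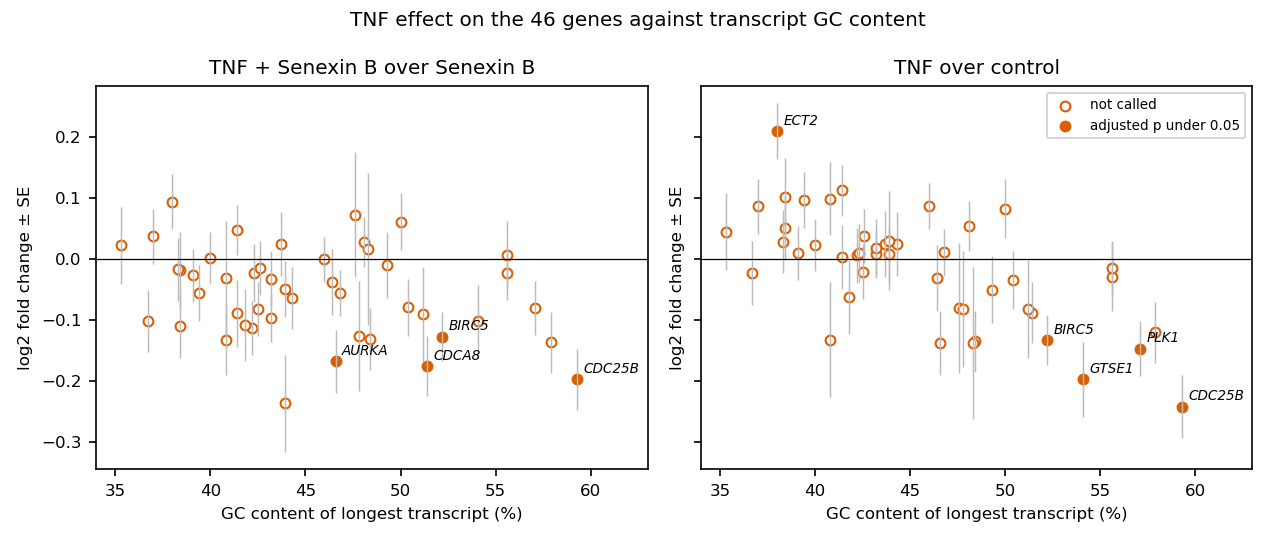
Log2 fold change (points, bars SE) of the 46 genes against the GC content of the longest transcript (percent), for TNF plus Senexin B over Senexin B on the left and TNF over control on the right; filled points have an edgeR adjusted p under 0.05. The right panel slopes downward (Spearman's correlation -0.647), with ECT2 at the GC-poor end and CDC25B at the GC-rich end; the left panel has a Spearman correlation of -0.264.

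Both agents together against control lowered 8 genes. KIF20A fell by 0.34 ± 0.05 (edgeR adjusted p = 6.32e-07) and CKS2 by 0.34 ± 0.05 (adjusted p = 1.49e-06), and AURKA by 0.24 ± 0.05 (adjusted p = 0.000455). CDC25B, CDCA8, ANLN, CCNB1 and KPNA2 fell by 0.12 to 0.19. Every one of these but KPNA2 had groups without overlap. The median of the set was -0.08, 38 of 46 values were negative, and 20 genes were lower and 2 higher without overlap (43.5% lower, against 13.1% of all genes lower and 13.5% higher). The calls of CKS2, KIF20A and AURKA held in all 12 fits that left out 1 library. CCNB1 (adjusted p = 0.0618) and ANLN (0.0604) were lost without TNF plus Senexin B replicate 1, CDC25B (0.106) and CDCA8 (0.0817) without control replicate 3, and KPNA2 without control replicate 2 or 3 or TNF plus Senexin B replicate 1 or 2 (0.0908 to 0.232). Without TNF plus Senexin B replicate 1 the count was 5, and without TNF replicate 1, which enters this comparison through the shared estimate of the spread, it was 14.

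Whether the inhibitor acted differently on the set with and without TNF was tested as an interaction. With edgeR, 0 of the 46 genes were called, 4 had an unadjusted p under 0.05 (8.70%), and DESeq2 also called 0. Of all tested genes 0.0459% were called, 0.0229% higher and 0.0229% lower, and 6.08% had an unadjusted p under 0.05. The 4 genes were TTK (-0.23 ± 0.08, adjusted p = 0.74), CDKN3 (-0.27 ± 0.11, 0.76), MAD2L1 (-0.15 ± 0.06, 0.76) and DLGAP5 (-0.16 ± 0.07, 0.79). The median interaction over the set was -0.05, or -0.0236 with GC-corrected offsets and -0.0198 without TNF replicate 1, and 41 of 46 intervals lay within a 1.25-fold change. For CKS2 the difference between the 2 Senexin B responses was -0.09 ± 0.08, for KPNA2 -0.09 ± 0.05 and for KIF20A 0.00 ± 0.07. The larger number of calls with TNF present is not shown to be a difference in response.

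Of the tested relatives of the members, PLK2 and BIRC2 changed in ways that PLK1 and BIRC5 did not, and they were not alone. In TNF against control, 2 of 2 polo-like relatives and 2 of 4 BIR domain relatives were called higher, with values up to 6.72 (log2). In TNF plus Senexin B against TNF, 1 BIR domain relative was called higher and 1 lower. KPNA3 fell there (-0.17 ± 0.05, edgeR adjusted p = 0.0418), as KPNA2 did, and KPNA4 gave -0.14 ± 0.05 (adjusted p = 0.0988). PLK2, a stress-responsive polo-like kinase, averaged 324 ± 11.6 CPM with both agents, 258 ± 4.44 CPM with TNF, 182 ± 5.56 CPM with Senexin B and 150.4 ± 5.53 CPM in control cells (SD, n = 3 each). It rose by 0.33 ± 0.04 and 0.27 ± 0.05 in the Senexin B comparisons with and without TNF, and by 0.83 ± 0.04 and 0.78 ± 0.04 in the TNF comparisons with and without the inhibitor, with edgeR adjusted p of 3.35e-05 or smaller. The PLK1 to PLK2 ratio was 0.630 ± 0.015 with both agents, 0.751 ± 0.058 with TNF, 1.19 ± 0.04 with Senexin B and 1.42 ± 0.02 in control cells, and no group overlapped another. BIRC2, an NF-kB-induced inhibitor of cell death from the same BIR domain family as BIRC5, averaged 171 ± 7.69 CPM with both agents, 152 ± 9.8 CPM with TNF, 56.2 ± 1.51 CPM with Senexin B and 50.7 ± 2.37 CPM in control cells. It rose by 1.60 ± 0.06 and 1.58 ± 0.06 in the TNF comparisons with and without the inhibitor. The BIRC5 to BIRC2 ratio was 1.74 ± 0.15 and 1.90 ± 0.10 with both agents and with TNF, against 5.76 ± 0.40 and 6.22 ± 0.30 with Senexin B and in control cells.

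**Figure D5:**
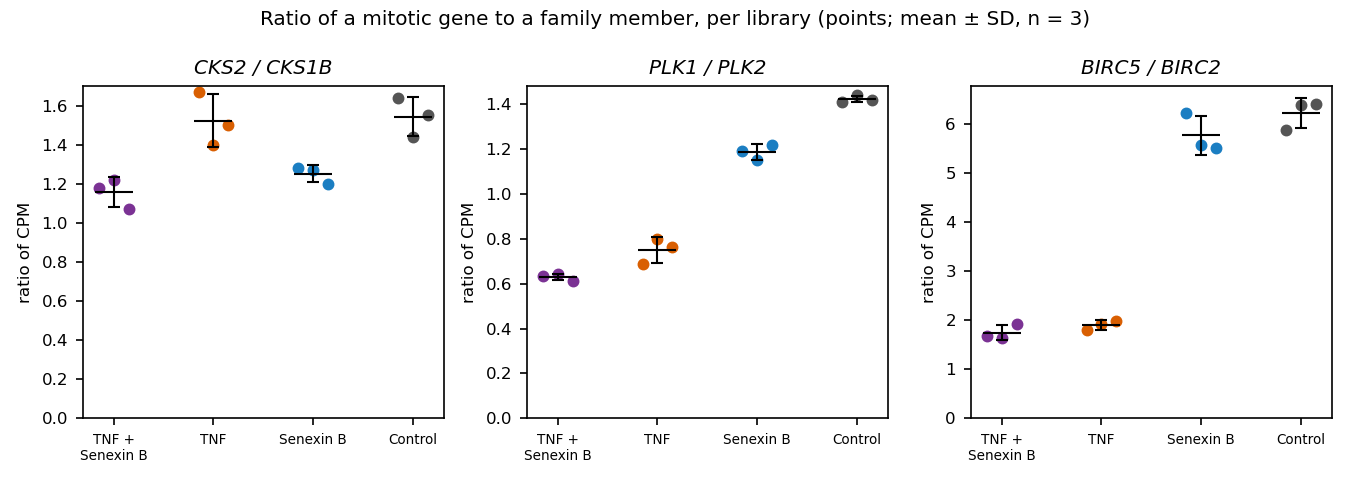
Ratio of CPM between a member and a family relative in each library (points, with mean and SD, n = 3; y axes from 0), for TNF plus Senexin B, TNF, Senexin B and control from left to right. CKS2 over CKS1B is lower in the 2 inhibitor groups (1.07 to 1.28, against 1.4 to 1.67), PLK1 over PLK2 falls in 4 separate bands, and BIRC5 over BIRC2 is lower in the 2 TNF groups.

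A wider list of 120 other G2/M genes, none of them a member and all tested, was scanned beside the set. Senexin B against control called 1 higher, the kinesin KIF18A (0.20 ± 0.06, edgeR adjusted p = 0.0354), and 1 lower, CCNF (-0.30 ± 0.05, adjusted p = 0.000113), the F-box protein cyclin F. TNF plus Senexin B against TNF called 16, all lower, led by FBXO5, an inhibitor of the anaphase-promoting complex (-0.32 ± 0.07, adjusted p = 0.000926), and CASC5, the kinetochore scaffold now named KNL1 (-0.29 ± 0.06, adjusted p = 0.00162). TNF against control called 6 higher and 9 lower, and both agents against Senexin B alone 2 higher and 11 lower. The mitotic inhibitor kinase WEE1 rose in both TNF comparisons (0.19 ± 0.05 with the inhibitor and 0.17 ± 0.05 without), and KIFC1, KIF18B, TACC3 and FAM83D fell in both. TNF plus Senexin B against control called 2 higher and 14 lower. Of all tested genes, 3.04, 5.45, 10.0, 5.95 and 11.2% were called in these 5 comparisons, in the order given. The shares called lower were 1.51, 2.55, 4.20, 1.68 and 5.08%. CCNF, at 92.4 ± 2.89 CPM with both agents, 107 ± 6.43 CPM with TNF, 106 ± 6.65 CPM with Senexin B and 130.0 ± 3.05 CPM in control cells, fell in all 5 comparisons, and 0 of the 120 genes were called in the interaction. None of the 14 subunits of the anaphase-promoting complex was called in any comparison. Medians of the 120 were -0.05 with TNF and -0.02 without it for Senexin B, and -0.02 with the inhibitor and 0.01 without it for TNF.

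Of 16 regulators of these genes (among them MuvB, B-Myb, DREAM and NF-Y genes), each Senexin B comparison called the same 2, CDKN1A and NFYA, both lower. Of all tested genes, 2.55% were called lower with TNF and 1.51% without it. CDKN1A, which encodes the cyclin-dependent kinase inhibitor p21, averaged 112 ± 3.72 CPM with both agents, 163 ± 4.64 CPM with TNF, 89.5 ± 0.698 CPM with Senexin B and 152 ± 2.92 CPM in control cells. It fell by 0.55 ± 0.05 with TNF and by 0.77 ± 0.05 without it (edgeR adjusted p = 6.11e-13 and 3.11e-18), larger than any change among the 46 genes. NFYA, a subunit of NF-Y, fell by 0.20 ± 0.06 and 0.19 ± 0.06 (adjusted p = 0.0336 and 0.0451). LIN54, the MuvB subunit that binds the CHR, fell by 0.28 ± 0.08 in TNF against control (adjusted p = 0.00864). Of 24 S phase genes, 4 fell in TNF plus Senexin B against TNF and 2 in Senexin B against control, beside the same 2.55% and 1.51%. RRM2, a subunit of ribonucleotide reductase, fell by 0.39 ± 0.04 and 0.27 ± 0.04, and CCNE2, cyclin E2, by 0.60 ± 0.09 and 0.30 ± 0.09, with and without TNF. The epithelial keratins KRT8 and KRT18 rose in the same comparisons (KRT8 by 0.17 ± 0.03 and 0.14 ± 0.03), 2 of 6 tested epithelial markers; their part in the changes of the set was not tested.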

How the data were processed

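The deposited table held raw read counts per gene symbol for 12 libraries, without normalization. STAR 2.4, SAMtools 1.2, featureCounts (Subread 1.4.6) and the builds hg38 and GRCh38 are named in the submitters' processing notes. The annotation release and strand setting are not given in the sources used here. Per the labels' protocols, libraries were prepared from total RNA with the TruSeq RNA kit. That kit does not mark strand, so reads in exons shared by genes on opposite strands cannot be told apart. How the counting treated such reads is not given in the sources used here. Besides KIF20A, called members with such overlaps include ANLN (78 exon bases with KIAA0895) and PLK1 (553 with AC008870.3). The 46 genes, the other lists and the tests were chosen with earlier results of these data known.

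Genes passing filterByExpr by group entered 1 fit of all 12 libraries with a coefficient per group, TMM factors and robust quasi-likelihood F-tests (edgeR 4.0.16 in R 4.3.3). P-values were adjusted by Benjamini-Hochberg over 13084 genes, and genes under 0.05 were called. P-values measure the spread between these libraries, which the labels call biological replicates. Errors of log2 fold changes are Wald standard errors scaled by the posterior quasi-dispersion, and intervals are at 95%. Levels are CPM of the TMM-scaled library total. The common biological coefficient of variation was 3.62%. Library totals were 5835226 to 9281176 counts, and the lowest count of any member was 116, so counting error weighs most on the members of lowest level. Positions, exon lengths and the GC content of the longest transcript came from GENCODE 29 (GRCh38), and GC content was known for 12186 of the 13084 genes (93.1%). Promoters came from RefSeq. The scripts were tested on simulated counts with 200 changed genes.

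Full values are given for the 12 called members with the smallest adjusted p and for the most abundant member by CPM of each role group. From the other lists, called genes with the smallest adjusted p per list were eligible, and ratios to relatives, KIF11, GTSE1, CKS1B and KIF20A's neighbours were added after their values were seen. Alternatives were RLE factors, DESeq2 1.42.0, no filter, the replicate number as a block, GC-corrected offsets (lowess of span 0.3 on each library's log ratios), each library left out, and fits of the compared groups alone. The replicate numbers do not pair the libraries by the labels. No deposited column of sample values was left out. Some regulator genes are not reported here.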

Additional observations from a re-analysis of the deposited data

How the results depend on the processing

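No call among the 46 genes changed direction under any alternative. Of the 28 calls (a gene in a comparison), RLE factors and the replicate block kept 28, DESeq2 21, no filter 19, GC-corrected offsets 23 and fits of the compared groups alone 22. With 1 library left out, the count of called members ranged from 1 to 4 for Senexin B against control (3 with all libraries), 3 to 9 for both agents against TNF alone (8), 2 to 6 for TNF against control (5), 1 to 5 for both agents against Senexin B alone (4), 5 to 14 for TNF plus Senexin B against control (8) and 0 to 0 for the interaction. The medians ranged from -0.0344 to -0.00809, -0.084 to -0.0582, -0.0215 to 0.013, -0.0622 to -0.0301, -0.0973 to -0.0686 and -0.0567 to -0.0198 in the same order. The replicate block called 4, 9, 6, 5, 12 and 0 in that order, adding CDC20, lower, in both TNF comparisons (adjusted p = 0.0111 with the inhibitor and 0.0251 without). Same-numbered libraries deviated together weakly (correlations from -0.012 to 0.103), and 9 of 12 libraries correlated best with their own number, a hint from the data only. With GC-corrected offsets the counts were 5 for both agents against TNF alone, 9 against Senexin B and 15 against control, and with the replicate block added 5, 11 and 16, and 5 for Senexin B against control. GC correction moved the median to -0.0417 for TNF against control, -0.0476 for both agents against TNF alone and -0.0236 for the interaction, and with the block added it was -0.0417, -0.0475 and -0.0236. Without control replicate 1 and TNF replicate 1 together the counts were 5 for both agents against TNF alone and 8 against Senexin B, and these medians were -0.0223, -0.0574 and -0.0251. Without a filter the counts were 5 for both agents against TNF alone and 3 for TNF against control, fits of the compared groups gave 2 for TNF against control, and DESeq2 gave 1 for both agents against Senexin B alone. The cause of these shifts was not tested. With 3 libraries a group the median SE of a member was 0.05 (log2), while CDC25C, the member with the lowest counts, had 0.10 to 0.11 between groups, and how much depth adds to it was not tested.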
